A study of Mus musculus with 6 samples.

Results

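The IκB genes and feedback brakes of NF-κB were compared between mouse B cells cultured with and without stimulation through TLR9. They are 10 genes chosen by symbol for their known roles: the IκB genes Nfkbia, Nfkbib, Nfkbie, Nfkbid, Nfkbiz and Bcl3, and the ubiquitin editing or binding genes Tnfaip3, Tnip1, Tnip2 and Cyld. All 10 were found among the 23420 genes with values, and all 10 were among the 11233 genes that passed the filter on low values.

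In resting cells, classical IκB proteins hold NF-κB dimers in the cytoplasm until the IKK kinases mark them for ubiquitination and degradation, and the freed dimers then induce new IκB and other inhibitors, which closes a negative feedback loop. Nuclear IκB proteins instead act on DNA-bound dimers, where they can restrain or promote transcription of chosen targets. A20, its ABIN partners and CYLD act further upstream, on the ubiquitin chains that carry the signal from TLRs and other receptors to IKK, and loss of A20 in B cells is known to lead to autoimmunity in mice.

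The study compared TLR7 and TLR9 signaling in lupus, and used B cells of wild-type (WT) BALB/c mice to define the genes that TLR9 ligation induces. B cells purified with beads from the spleens of 3 mice, 7 to 11 weeks old, were cultured for 4 hours at 10 M cells per ml, 10 M per culture. The CpG-stimulated group received 10 µg/ml of CpG ODN 1826, a synthetic DNA oligonucleotide that activates TLR9, and the unstimulated group was left without it. Each group had 3 samples, with replicates 1 and 2 labeled female and replicate 3 male, and both groups were wild type. Values are log2 counts per 1 M reads (log2 CPM), quantile normalized by the authors, on which 3 reads correspond to -2.34. The most common value, that of genes without reads, implies a common library of 17.8 M reads on genes, and the depth of each single sample is not visible after quantile normalization. The member with the fewest reads, Tnip2, still had the equivalent of 422 reads in its lowest sample.

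The CpG-stimulated group was tested against the unstimulated group with limma over all tested genes, with Benjamini-Hochberg adjustment (FDR), and a positive log2FC means a higher value after CpG. At an FDR under 0.05, 8 of the 10 members rose, where 37.6% of all tested genes did, and 1 fell, where 36.7% of all tested genes did. At the same FDR, a log2FC over 1 was reached by 4 members, against 15.8% of tested genes, and a log2FC under -1 by 1 member, against 15.3%. The groups did not overlap in 8 members: all 3 stimulated values were higher than all 3 unstimulated values in 7 of them, against 39.1% of tested genes, and lower in 1, against 38.6%. The median log2FC of the 10 members was 0.67, and that of all tested genes was 0.00. Since these are bulk samples, fewer cells of a type and less RNA per cell cannot be told apart, and the labels do not say which mouse gave which sample, so p values measure only the spread between these samples.

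**Figure D1:**
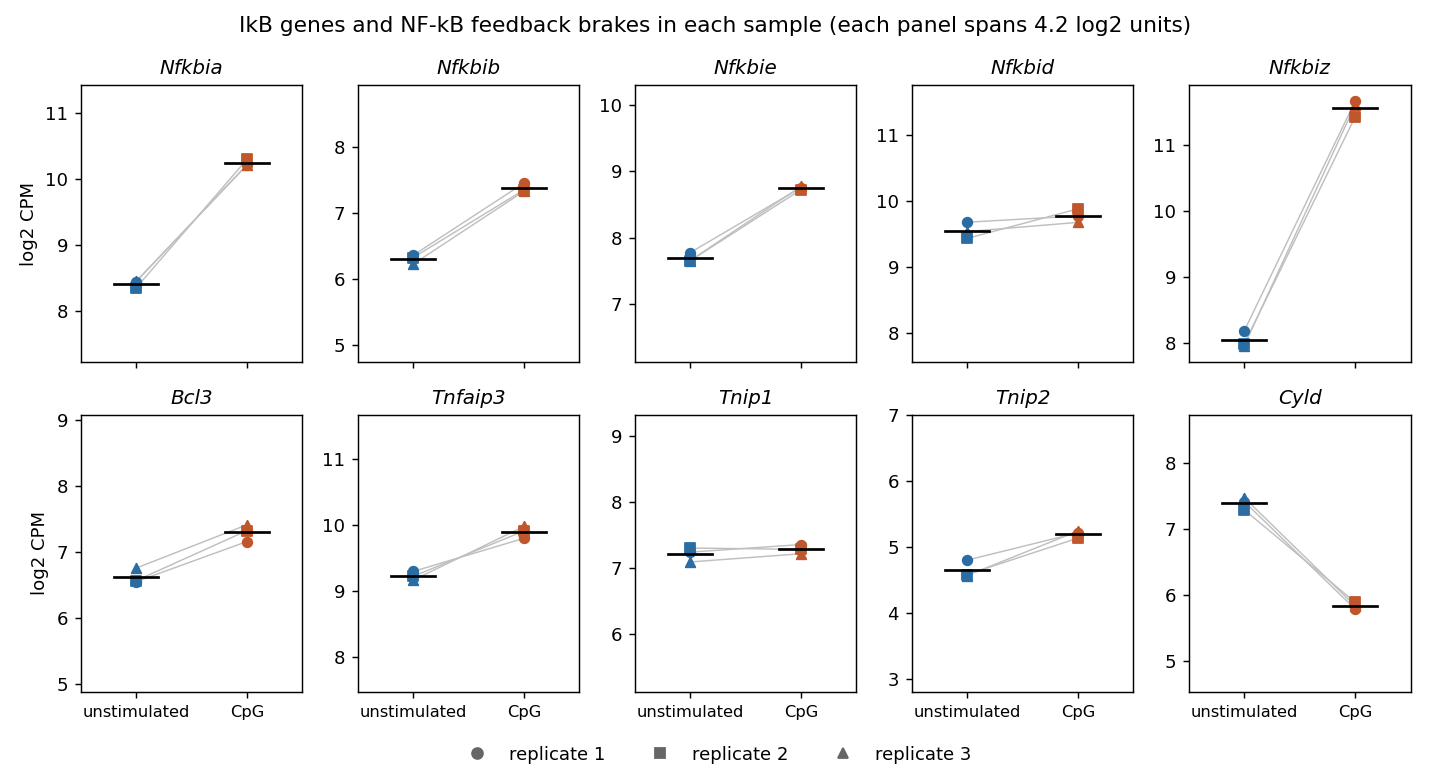
Log2 CPM of the 10 members in the unstimulated (left, blue) and CpG-stimulated (right, orange) samples, each panel spanning the same number of log2 units, with 1 symbol per replicate number, gray lines joining equal numbers and black bars for group means (n = 3). Nfkbiz rose from a mean of 8.04 to 11.56 and Cyld fell from 7.39 to 5.84, while Nfkbid and Tnip1 were the members whose groups overlapped.

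All 3 classical IκB genes were upregulated. Nfkbia encodes IκBα, the inhibitor that is degraded and resynthesized fastest in the classical loop. Its values were 8.44, 8.35 and 8.45 log2 CPM in unstimulated replicates 1, 2 and 3, and 10.21, 10.29 and 10.21 in the CpG-stimulated ones. The 3 stimulated samples lay close together and far above the 3 unstimulated samples, with no overlap. The difference was a log2FC of 1.83 (SE 0.06, n = 3 per group), a 3.55-fold increase, at an FDR of 1.6e-08 in limma with Benjamini-Hochberg adjustment. Samples with the same replicate number differed by between 1.76 and 1.95.

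Nfkbib encodes IκBβ, an inhibitor that is resynthesized more slowly. It measured 6.36, 6.32 and 6.23 log2 CPM without CpG and 7.45, 7.35 and 7.33 with CpG. Replicate 1 was the highest and replicate 3 the lowest in both groups, and the groups did not overlap. Limma gave a log2FC of 1.08 with a 95% confidence interval from 0.93 to 1.22 (FDR 2.6e-07, Benjamini-Hochberg).

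Nfkbie encodes IκBε, an inhibitor of RELA and c-REL dimers that is prominent in B cells. Unstimulated samples had 7.77, 7.65 and 7.65 log2 CPM, and stimulated samples had 8.76, 8.73 and 8.77. Again every stimulated value was above every unstimulated value, and the stimulated SD was 0.02. The log2FC was 1.06, with a 95% confidence interval from 0.93 to 1.20 and an FDR of 1.6e-07 in limma with Benjamini-Hochberg adjustment. For Nfkbib and Nfkbie the interval included 1, and tested against a log2FC of 1 with limma's treat neither passed (Benjamini-Hochberg FDR 0.556 and 0.625), whereas Nfkbia did. All 3 classical IκB transcripts thus rose, and the intervals of Nfkbib and Nfkbie lay below that of Nfkbia, a difference between genes that was not tested.

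The nuclear IκB genes differed more from one another. Nfkbiz encodes IκBζ, a nuclear factor needed for transcription of secondary response genes such as Il6, and it had the largest log2FC of the 10 members. Its log2 CPM was 8.18, 7.98 and 7.96 in the unstimulated samples and 11.66, 11.42 and 11.60 in the stimulated samples. The groups were far apart, and replicate 1 was the highest in both. CpG raised Nfkbiz by a log2FC of 3.52 (SE 0.09), or 11.5-fold, at an FDR of 5.4e-09 in limma with Benjamini-Hochberg adjustment. This log2FC had rank 65 from the top among the 11233 tested genes.

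Bcl3 encodes a nuclear IκB that works with p50 and p52 homodimers. It measured 6.56, 6.57 and 6.76 log2 CPM without CpG and 7.17, 7.33 and 7.42 with CpG. In both groups replicate 1 was the lowest and replicate 3 the highest, and all stimulated values were above all unstimulated ones. Its log2FC was 0.67 (95% confidence interval 0.49 to 0.86), with an FDR of 3.9e-05 in limma with Benjamini-Hochberg adjustment.

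Nfkbid encodes IκBNS, a nuclear IκB that B cells need for B1 and marginal zone development and for plasma cell formation. It was already abundant without CpG, at 9.68, 9.44 and 9.54 log2 CPM, and measured 9.78, 9.89 and 9.68 with CpG. The groups touched: unstimulated replicate 1 and stimulated replicate 3 had the same value at 2 decimals, and the unstimulated one was the higher by less than that. The log2FC was 0.23 (SE 0.08), and its FDR of 0.027 in limma with Benjamini-Hochberg adjustment was just under the threshold. This call was lost without stimulated replicate 1 (log2FC 0.23) or 2 (0.18) and without unstimulated replicate 2 (0.17) or 3 (0.22), with Benjamini-Hochberg FDR values in limma from 0.053 to 0.122. Over 13 alternatives the FDR ranged from 0.00998 to 0.147, and 6 of them ended the call.

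Among the ubiquitin editing and binding genes, both directions were seen. Tnfaip3 encodes A20, which edits and binds ubiquitin chains to shut off signaling to IKK. Its values were 9.30, 9.23 and 9.17 log2 CPM in unstimulated samples and 9.80, 9.91 and 9.98 in stimulated samples. Replicate 3 was the lowest without CpG and the highest with CpG, and the groups did not overlap. The log2FC was 0.67 (SE 0.07), at an FDR of 1.0e-05 in limma with Benjamini-Hochberg adjustment, and differences between samples of equal number ran from 0.50 to 0.81.

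Tnip1 and Tnip2 encode ABIN-1 and ABIN-2, ubiquitin-binding proteins that partner with A20. Tnip1 measured 7.25, 7.31 and 7.10 log2 CPM without CpG and 7.36, 7.29 and 7.22 with CpG, so the groups overlapped. It was the only member that did not pass the test, with a log2FC of 0.07 (95% confidence interval -0.09 to 0.23) and an FDR of 0.379 in limma with Benjamini-Hochberg adjustment. The interval leaves room for a decrease of 0.09 or an increase of 0.23 on the log2 scale.

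Tnip2 measured 4.80, 4.58 and 4.57 log2 CPM without CpG and 5.22, 5.14 and 5.24 with CpG. Unstimulated replicate 1 stood above the other two, but below every stimulated sample. Limma gave a log2FC of 0.55 (SE 0.09) and an FDR of 2.4e-04 with Benjamini-Hochberg adjustment.

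Cyld encodes a deubiquitinase that trims linear and K63-linked chains, and it was the only member that fell. It measured 7.41, 7.29 and 7.47 log2 CPM in unstimulated samples and 5.79, 5.89 and 5.83 in stimulated samples. All 3 stimulated values were well below all 3 unstimulated values. Its log2FC was -1.56 (SE 0.07), with values 2.94-fold lower after CpG and an FDR of 4.6e-08 in limma with Benjamini-Hochberg adjustment. Between samples of equal number the difference lay between -1.64 and -1.40.

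Levels of different genes were compared per kb of annotated exon length, as log2 CPM minus the log2 of the length. Without CpG, Nfkbid had the highest mean level, at 8.33 log2 CPM per kb, followed by Nfkbia at 7.72, Tnfaip3 at 6.38 and Nfkbie at 6.08. Nfkbiz followed those 4, at 5.71. Next came Tnip1 at 5.39, Bcl3 at 5.32 and Nfkbib at 5.19, then Cyld at 3.74 and Tnip2 at 3.23. Neighbors in this order had separate sample ranges except Tnip1 and Bcl3.

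With CpG the order per kb was different. Nfkbia was highest at 9.55 log2 CPM per kb, then came Nfkbiz at 9.23 and Nfkbid at 8.55. They were followed by Nfkbie at 7.15, Tnfaip3 at 7.05, Nfkbib at 6.26, Bcl3 at 5.997 and Tnip1 at 5.47. Tnip2 (3.77) and Cyld (2.18) were the lowest and had changed places. Only Nfkbie and Tnfaip3 were neighbors with overlapping sample ranges. These levels depend on the annotated lengths, from 1.61 kb for Nfkbia to 12.6 kb for Cyld, and on which transcript ends B cells use, which was not measured.

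The makeup of the IκB transcripts was described by the share of each gene in the summed CPM per kb of all 6 IκB genes. Nfkbid made up 45.4%, 42.9% and 43.6% of that sum in unstimulated replicates 1, 2 and 3 and 18.4%, 20.1% and 17.6% in the stimulated ones. Nfkbiz made up 7.49%, 7.31% and 6.80% without CpG and 31.6%, 27.2% and 31.1% with CpG. Nfkbid thus went from the largest share to the third, although its own value did not fall. Nfkbia had a mean share of 29.0% (SD 0.932, n = 3) without CpG and 37.3% (SD 1.36, n = 3) with CpG. The mean share of Nfkbie was 9.30% and 7.04%, that of Bcl3 was 5.51% and 3.18%, and that of Nfkbib was 4.998% and 3.81%, in the same order. All 3 rose in their own values while their shares were lower in every stimulated sample.

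**Figure D2:**
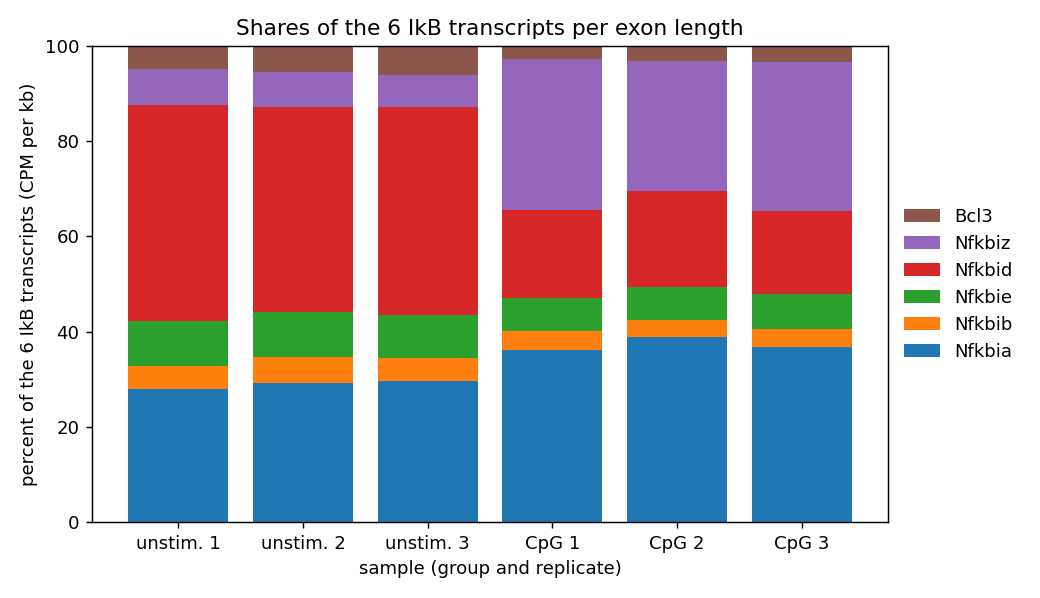
Percent of the summed CPM per kb of the 6 IκB transcripts that each contributed, for the 3 unstimulated samples (left) and the 3 CpG-stimulated samples (right). The share of Nfkbiz was between 6.80% and 7.49% without CpG and between 27.2% and 31.6% with CpG.

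The classical IκB transcripts were then set against those of the NF-κB subunits, first Rel, Rela and Relb alone and then all 5. The sum of Nfkbia, Nfkbib and Nfkbie was 325, 305 and 317 CPM per kb in unstimulated samples and 960, 994 and 953 in stimulated samples. The sum of Rel, Rela and Relb, whose proteins carry the transactivation domain, was 280, 249 and 263 CPM per kb without CpG and 153, 153 and 156 with CpG. The first sum was higher and the second lower in every stimulated sample. Their ratio was 1.16, 1.22 and 1.21 in unstimulated samples and 6.25, 6.48 and 6.09 in stimulated samples. The sum of all 5 subunits, with Nfkb1 and Nfkb2, whose products also form such dimers, was 431, 377 and 403 CPM per kb without CpG and 523, 474 and 561.6 with CpG. Against that sum, which was higher in every stimulated sample, the classical IκB ratio was 0.755, 0.810 and 0.786 without CpG and 1.83, 2.099 and 1.70 with CpG.

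For the nuclear IκB genes and Nfkb1 with Nfkb2, which encode the subunits p50 and p52, the sums rose side by side. Nfkbid, Nfkbiz and Bcl3 together had 446, 385 and 411 CPM per kb without CpG and 1077, 1015 and 1039 with CpG. Nfkb1 and Nfkb2 together had 151, 127 and 141 CPM per kb without CpG and 370, 320 and 405 with CpG. The ratio was 2.96, 3.02 and 2.93 in unstimulated and 2.91, 3.17 and 2.56 in stimulated samples, with overlapping groups. Tnfaip3 exceeded Cyld per kb by a ratio of 6.44, 6.66 and 5.64 without CpG and 28.2, 28.3 and 30.9 with CpG. All these are ratios of transcripts and say nothing of protein amounts, which were not measured here.

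Among the 5 NF-κB subunits themselves, 2 rose and 3 fell, with a median log2FC of -0.18. Of all tested genes, 37.6% rose and 36.7% fell at the same FDR, and whether this list differs from them was not tested. Nfkb1 rose with a log2FC of 1.71 and Nfkb2 with 1.04. Rel, which encodes the c-REL subunit of mature B cells, measured 10.30, 10.05 and 10.22 log2 CPM without CpG and 9.01, 8.94 and 8.99 with CpG, a log2FC of -1.21. Relb fell with a log2FC of -0.46. Rela fell with a log2FC of -0.18 at an FDR of 0.027 in limma with Benjamini-Hochberg adjustment. The call of Rela was lost without stimulated replicate 3 (FDR 0.065) or unstimulated replicate 1 (0.1003) or 2 (0.095), with no filter (0.066) and with no variance trend (0.063).

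Of the 9 genes that relay the signal from TLR9 to IKK, 6 rose, 2 fell and Ube2v1 did not pass, with a median log2FC of 0.37. The shares over all tested genes were 37.6% up and 36.7% down, and a difference from them was not tested. Tlr9 itself rose with a log2FC of 1.07, Ube2n, encoding a ubiquitin-conjugating enzyme, with 0.66, and Traf6, encoding a ubiquitin ligase, with 0.64. The kinase genes Irak2 and Irak1 fell, with a log2FC of -1.06 and -0.23. With no filter, Unc93b1 lost its call and 5 of the 9 genes rose. In the list of 10 IKK subunits, related kinases and activating kinases, 4 rose and 4 fell, with a median log2FC of -0.05. Both counts are near those shares of all tested genes. Ikbke, encoding the IKK-related kinase IKKε, went from 1.54, 1.11 and 1.40 log2 CPM to 4.86, 4.62 and 4.45, with a log2FC of 3.29, and stood apart from the rest of that list. Map3k7, the gene of TAK1, and Tab1 rose with a log2FC of 0.32 and 0.29, and Tab2, Map3k14 and Tbk1 fell with -0.76, -0.57 and -0.53. Chuk and Tab3 did not pass, though Tab3 fell without unstimulated replicate 3. Without stimulated replicate 3, Tab1 and Ikbkb lost their calls and 2 of the 10 genes rose. Tab1 also lost its call without stimulated replicate 1 or unstimulated replicate 2, and Ikbkb without unstimulated replicate 1.

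For the ubiquitin ligase that acts on phosphorylated IκB, 2 of its 5 genes rose, 1 fell and 2 did not pass the test. Among all tested genes 37.6% rose and 36.7% fell, and whether these 5 genes differ was not tested. Btrc, the gene of the substrate receptor β-TrCP1, fell with a log2FC of -1.13, while Fbxw11, the gene of its paralog β-TrCP2, had a log2FC of 0.00. Skp1a rose with a log2FC of 0.86 and Rbx1 with 0.50, and Cul1 had a log2FC of 0.05. Stimulated samples had 3.75, 3.91 and 4.12 log2 CPM of Btrc against 5.09, 4.98 and 5.08 in unstimulated samples.

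Among 10 partners of A20 and enzymes of linear ubiquitin, 3 rose, 6 fell and Rnf31 did not pass, with a median log2FC of -0.28. By comparison, 37.6% of all tested genes rose and 36.7% fell, and a difference from them was not tested. The A20 partners moved both ways: Tax1bp1 and Itch fell with a log2FC of -1.06 and -0.84, and Rnf11 rose with 0.68. Sharpin and Rbck1, whose proteins belong to the complex that builds linear chains, went in opposite directions, with a log2FC of -0.63 and 0.40. Tnip3, the gene of ABIN-3, had a log2FC of 2.83 from -3.95, -2.00 and -2.53 log2 CPM to 0.44, -0.16 and -0.27. Since 2 of its unstimulated values were under the level of 3 reads, the size of that increase is uncertain. Its unstimulated values were all under the filter level of -0.76, so it entered the test only through the stimulated group, and with 10 reads required in every sample it was not tested and 2 genes of this list rose. Otulin, among those that fell, lost its call without stimulated replicate 3 or unstimulated replicate 2, with no filter and with no variance trend. Spata2 lost its call with no filter, under which 4 of the 10 genes fell.

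The list of 11 other brakes on NF-κB signaling or on its transcripts had 3 genes that rose and 8 that fell, with a median log2FC of -0.36. Socs1 rose with a log2FC of 1.72, Zc3h12a, the gene of the RNase Regnase-1, with 1.17, and Commd1 with 0.61. Irak3, encoding the inhibitory IRAK family protein IRAK-M, fell with a log2FC of -1.66. Pdlim2, whose protein sends nuclear RELA for degradation, and Otud7b, the gene of the deubiquitinase Cezanne, fell with -1.46 and -0.93. Over all tested genes, 37.6% rose and 36.7% fell, and whether this list differs from them or from the 10 members was not tested.

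For 22 textbook targets of NF-κB, 21 rose, where 37.6% of all tested genes did, and Cd83 did not pass. The median log2FC was 2.53. The largest fitted values were those of Il6 (5.30), Ebi3 (4.64) and Ccl22 (4.26). For Ccl22, 2 of 3 unstimulated values were under the level of 3 reads, and for Il6 1 was, so the sizes of these changes are uncertain. Ccl22 was under the filter level of -0.76 in all 3 unstimulated samples and entered the test only through the stimulated group. With 10 reads required in every sample, Ccl22, Il6 and Ier3 were not tested and 18 genes of this list rose. Of the 10 members, Nfkbiz was the only one with a log2FC above the median of this list. The list was chosen with earlier results of these data known and leaves out the members, so its median is no independent reference.

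**Figure D3:**
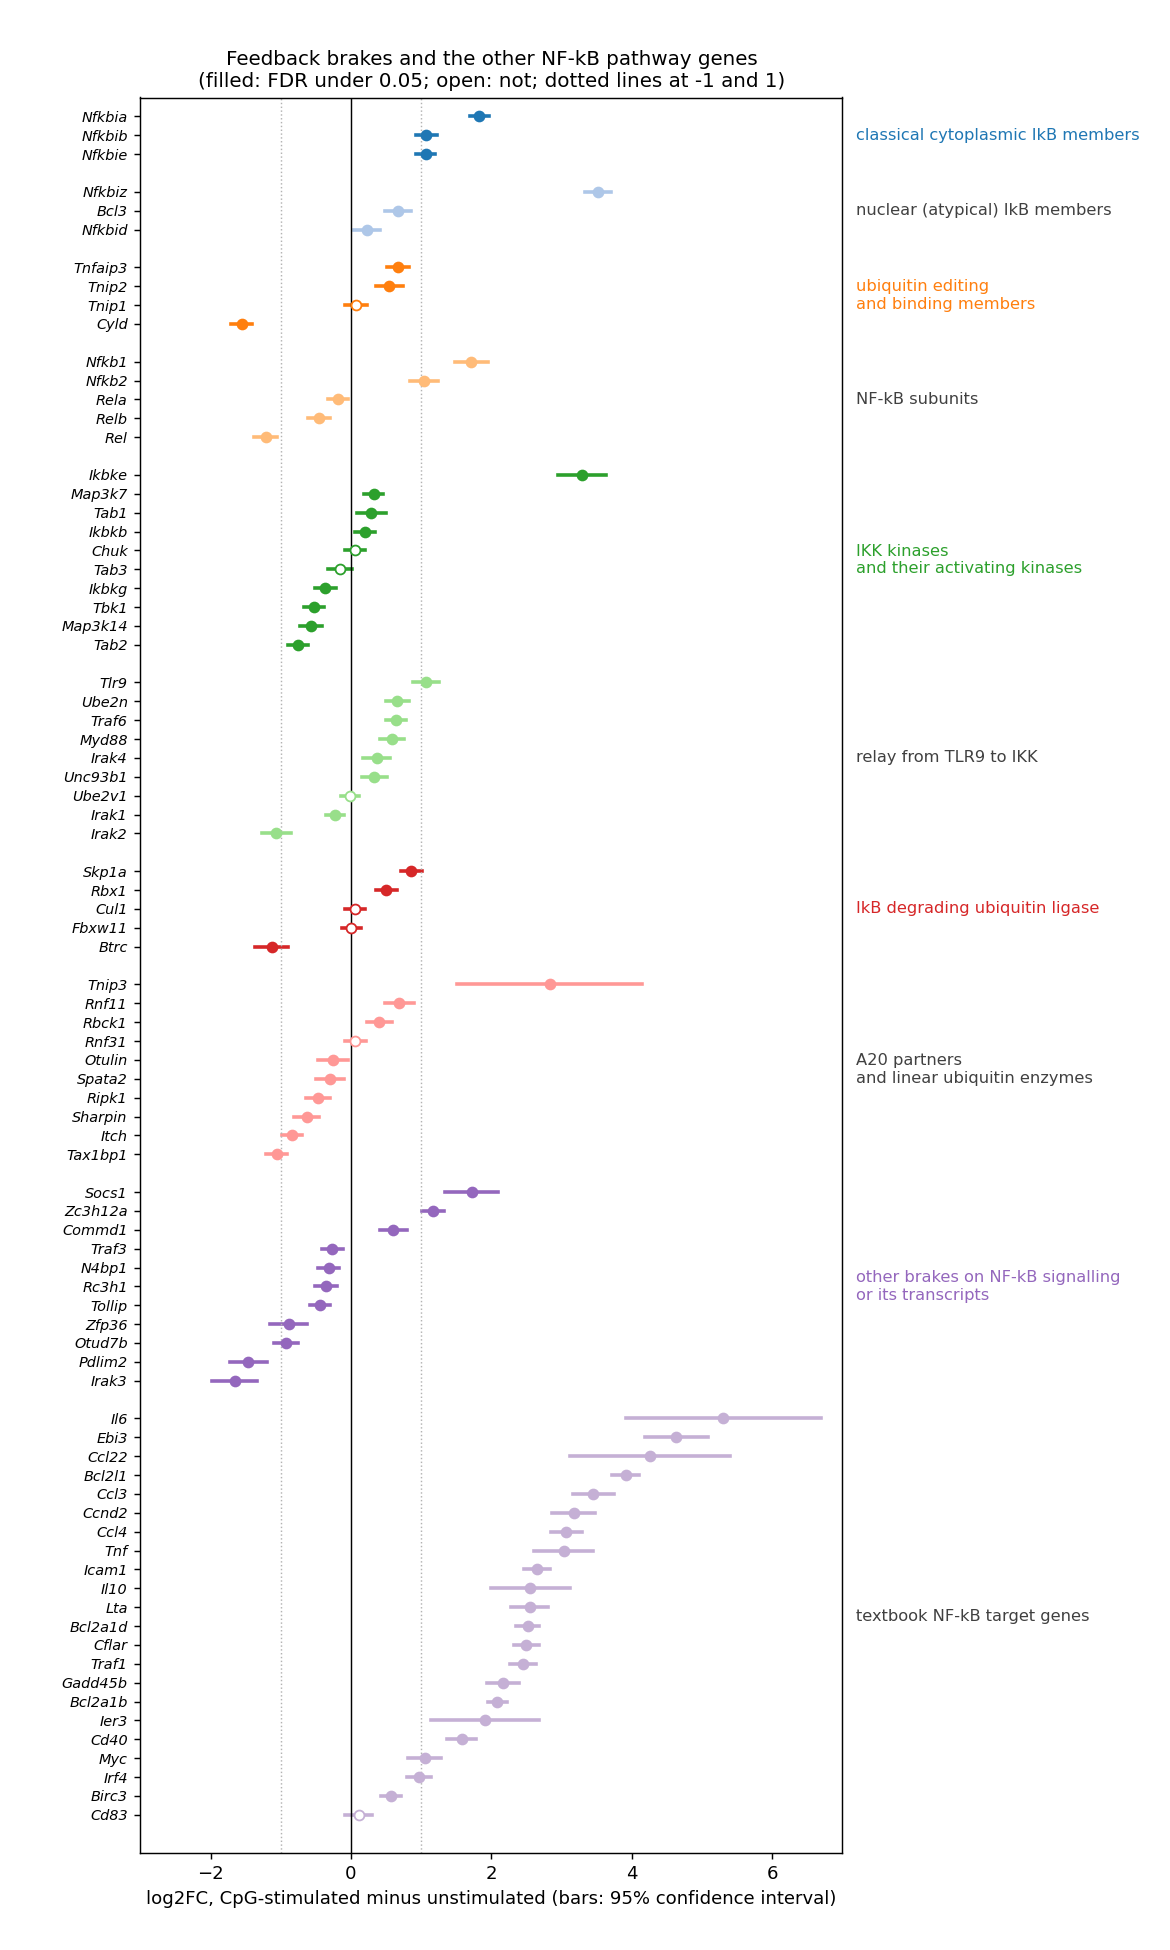
Log2FC (CpG-stimulated minus unstimulated, 3 samples per group) with 95% confidence intervals for the 10 members, in 3 role groups at the top, and for the other NF-κB pathway genes by list, with filled circles for an FDR under 0.05. The 3 classical IκB genes lie between 1.06 and 1.83, Cyld lies at -1.56, and 21 of the 22 target genes lie right of 0 with filled circles.

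The genes with values most like those of Nfkbiz and Cyld were found by the root mean square distance of log2 values over the 6 samples, after each gene was centered on its mean. For Nfkbiz they were D8Ertd82e (distance 0.09, log2FC 3.56), Tlcd1 (0.11, 3.45) and Il2ra (0.13, 3.47), and the median distance of the other tested genes was 1.77. For Cyld they were Map3k1 (0.02, log2FC -1.54), Tbc1d14 (0.04, -1.56) and Ankrd44 (0.05, -1.56), with a median distance of 0.82. With 3 samples per group, likeness over 6 samples is mainly likeness of the CpG response.

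The members lie on 8 chromosomes of GRCm38 (mm10), and Nfkbib, Nfkbid and Bcl3 share chromosome 7. Nfkbia lies on chromosome 12 from 55489410 to 55492647, minus strand, Nfkbiz on chromosome 16 from 55811375 to 55838899, minus strand, and Cyld on chromosome 8 from 88697028 to 88751945, plus strand. None of these was annotated with an overlapping gene except Cyld, which overlaps the processed pseudogenes Gm17995 and Gm17910 on the other strand. Nfkbib overlaps Sirt2 and Ccer2 on the other strand, Bcl3 overlaps the antisense genes Gm16175 and Gm16174, and Tnip1 overlaps the pseudogene Gm12230. The study's methods name a stranded TruSeq mRNA kit, but whether reads were counted by strand is not given in the sources used here, so the values of Nfkbib, Bcl3, Tnip1 and Cyld may include reads of these neighbors or lack shared ones. Sirt2 measured 5.24, 5.15 and 5.05 log2 CPM without CpG and 3.90, 4.06 and 4.07 with CpG, a log2FC of -1.14, opposite in direction to Nfkbib.

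Promoter windows from 250 bases before to 50 bases after the annotated start (RefSeq, GRCm38.p6) were matched by symbol for 9 members, which had 12 windows. The other member is Nfkbiz. Both strands were searched for the κB consensus, a pattern of 10 bases that NF-κB dimers bind, and for the AP-1 motif TGANTCA. The κB consensus was found in 7 of the 12 windows, belonging to 7 of the 9 members, and in 8.46% of all 32851 windows. Among tested genes with a window it was found in 12.3% of all, in 11.2% of those with a log2FC over 1 and in 13.9% of those with a log2FC under -1, both at an FDR under 0.05. Nfkbia, Nfkbie, Bcl3 and Cyld had 1 match each, Nfkbid and Tnfaip3 had 2, Tnip1 had 3 that overlap one another, and Nfkbib and Tnip2 had none. The Nfkbib window, chr7:28766595-28766894 (minus), does not reach the GENCODE 5′ end of that gene at 28767512, so that start was not searched. AP-1 was found in the windows of Nfkbie and Tnfaip3 and in 7.81% of all windows. Matches thus occurred in members that rose, in the member that fell and in the member that did not pass, and a match describes letters, not binding.

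These 4 windows are shown because they hold matches and belong to members with different responses, with a log2FC of 1.83 for Nfkbia, 0.67 for Tnfaip3, 0.07 for Tnip1 and -1.56 for Cyld. Capitals mark matches to the κB consensus, and each sequence is 5′ to 3′ on the strand of the gene: chr12:55492598-55492897 (minus), chr10:19015361-19015660 (minus), chr11:54962891-54963190 (minus) and chr8:88696778-88697077 (plus). Counted from the annotated start, the match begins at -29 in Nfkbia, at -125 and -12 in Tnfaip3, at -58 in Tnip1 and at -155 in Cyld. In Tnip1 the 3 overlapping matches form a single run of capitals.
Nfkbia: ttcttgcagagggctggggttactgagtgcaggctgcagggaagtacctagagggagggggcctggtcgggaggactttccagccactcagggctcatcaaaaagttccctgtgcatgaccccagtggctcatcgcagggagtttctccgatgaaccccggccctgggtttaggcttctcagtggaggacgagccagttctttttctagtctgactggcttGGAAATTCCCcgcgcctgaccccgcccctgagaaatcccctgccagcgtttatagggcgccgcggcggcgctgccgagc
Tnfaip3: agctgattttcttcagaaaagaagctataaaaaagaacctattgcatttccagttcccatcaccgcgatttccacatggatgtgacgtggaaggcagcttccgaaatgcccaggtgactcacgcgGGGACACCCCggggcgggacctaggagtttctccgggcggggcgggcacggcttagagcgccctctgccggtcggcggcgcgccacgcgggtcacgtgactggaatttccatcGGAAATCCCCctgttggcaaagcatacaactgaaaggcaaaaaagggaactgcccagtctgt
Tnip1: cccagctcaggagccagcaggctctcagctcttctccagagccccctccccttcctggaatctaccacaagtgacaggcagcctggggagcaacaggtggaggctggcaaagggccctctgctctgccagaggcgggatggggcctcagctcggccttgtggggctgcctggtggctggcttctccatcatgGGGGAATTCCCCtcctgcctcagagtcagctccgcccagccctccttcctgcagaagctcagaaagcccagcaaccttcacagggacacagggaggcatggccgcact
Cyld: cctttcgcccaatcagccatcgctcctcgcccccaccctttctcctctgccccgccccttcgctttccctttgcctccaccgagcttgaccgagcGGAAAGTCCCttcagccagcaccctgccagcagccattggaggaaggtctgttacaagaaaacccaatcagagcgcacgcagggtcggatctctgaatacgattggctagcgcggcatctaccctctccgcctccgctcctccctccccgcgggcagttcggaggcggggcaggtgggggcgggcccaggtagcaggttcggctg

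Marker genes were read in each sample to describe the purified cells. All 8 B cell markers passed the filter, with Cd79b the most abundant, and they summed to 3958, 3950 and 4575 CPM without CpG and 2948, 3343 and 3366 with CpG. They moved both ways: Cd22 fell with a log2FC of -2.40 and Cd79a with -1.63, while Ms4a1 rose with 0.77. T cell markers were near absent, since none of the 6 matched genes of 7 passed the filter, Cd3e, Cd4, Cd8a and Thy1 were at or under the level of 3 reads in all 6 samples, and their sum was between 0.331 and 0.626 CPM. The 7 myeloid markers, led by Adgre1, summed to 7.52, 14.9 and 14.6 CPM without CpG and 10.1, 15.8 and 14.6 with CpG, so the groups overlapped. Of these, Csf1r and Cd14 fell with a log2FC of -1.61 and -1.73, and Adgre1 rose with 0.83. Csf1r and Cd14 were under the filter level in every stimulated sample, so they entered the test only through the unstimulated group. The lowest stimulated value of Csf1r was also under the level of 3 reads, so the size of its decrease is uncertain. The 4 NK cell markers, led by Prf1, summed to 3.38, 3.14 and 2.96 CPM without CpG and 1.51, 2.59 and 2.31 with CpG, with Ncr1 and Gzma at or under 3 reads. Prf1 fell with a log2FC of -1.57, whereas Klrb1c, which did not pass the filter, was at -4.27, -4.79 and -4.90 log2 CPM without CpG and -0.84, 0.23 and 0.23 with CpG.

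Plasma cell markers, led by Jchain, summed to 828, 874 and 1182 CPM without CpG and 468, 533 and 602 with CpG over 4 genes. The 4 plasmacytoid dendritic cell markers summed to 17.5, 16.3 and 16.7 CPM without CpG and 31.3, 30.1 and 26.5 with CpG, nearly all of it Bst2, which is also interferon inducible. Ccr9 fell with a log2FC of -0.94, and Siglech and Klk1 did not pass the filter. For 3 platelet markers, led by Itga2b, the sums were 9.03, 9.08 and 6.10 CPM without CpG and 5.30, 6.06 and 5.26 with CpG. B cell, plasma cell, NK cell and platelet sums were thus lower in every stimulated sample, and the plasmacytoid sum was higher, although Klrb1c, Ccr9 and B cell markers such as Ms4a1 went against the sums of their lists, and their part in the changes of the members was not tested. Erythroid markers, 5 of 6 matched and led by Hbb-bs, were high in replicate 2 of both groups, at 3776 CPM without CpG and 4868 with CpG, against 378.7 to 593 CPM in the other samples. Hba-a1 and Hba-a2 had no reads by their values. Without stimulated or unstimulated replicate 2, Nfkbid lost its call, and the other 8 members that passed the test still passed it.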

How the data were processed

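RNA-seq values of 3 CpG-stimulated and 3 unstimulated samples were used. Per the submitters' processing notes and methods, STAR 2.6.1a placed reads on mm10 and featureCounts (Subread 2.0.1) counted them per gene. The authors then quantile normalized the counts and deposited log2 CPM values from voom. These values were tested as deposited with limma 3.58.1 in R 4.3.3 (lmFit, eBayes with a trend), CpG-stimulated minus unstimulated, over the 11233 genes above the value of 10 reads (-0.76) in at least 3 samples, with Benjamini-Hochberg adjustment over all of them. The procedure was tested on simulated data, the outcome of which is not reported here. To check pairing by replicate number, deviations from the group means were correlated across genes, which gave 0.435, 0.224 and 0.300 for equal numbers and -0.281 to 0.0279 for others. The labels state no pairing. Values also carry a shift shared by equal numbers. Its part in these correlations was not measured, so whether the samples were paired is not known. The shift cancels in the log2FC over all 6 samples, but not where a sample is left out. It need not cancel in the spread within groups, so it may also affect the SE and FDR of the main fit. The size of that effect was not measured. A replicate block was run as an alternative only.

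The members and lists were chosen with earlier results of these data known. Named genes are the 10 members, every gene of a list of 5 or fewer, otherwise the 3 largest and 3 most negative log2FC past an FDR of 0.05, and the 3 genes nearest in pattern to Nfkbiz and to Cyld. Genes that did not pass the test where they were few, the overlapping genes and the marker genes given with a value were named after their values were seen. So were genes of the lists whose call changed, or that were not tested, under an alternative. Exon lengths and positions are from GENCODE vM21 (GRCm38) and promoters from RefSeq (GRCm38.p6). Older symbols (Emr1, Igj, Beta-s, Fam105b) were matched to Adgre1, Jchain, Hbb-bs and Otulin, and Trac and Hbb-bt were not analysed here. A result of 1 further list is not reported here.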

Additional observations from a re-analysis of the deposited data

How the results depend on the processing

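Alternatives were no filter, 10 reads in every sample, log2(CPM + 1), log2(CPM + 0.1), no variance trend, median centering, a replicate block, each of the 6 samples left out, and limma's treat against a log2FC of 1. Apart from treat, 124 of 130 member values kept their direction and their side of the 0.05 FDR, and none reversed. The 6 others were all of Nfkbid: its log2FC of 0.23 no longer passed with no filter (FDR 0.147) or no trend (0.0680), or with 4 of the samples each left out, with a log2FC between 0.17 and 0.29 over the 6 samples left out in turn. In those fits the shift shared by equal replicate numbers does not cancel. Under the replicate block Nfkbid kept its log2FC of 0.23 with an FDR of 0.00998, and the block changed no other call of a member. With it, 1784 genes passed the FDR with a log2FC over 1, 1774 of them shared, and 1728 with a log2FC under -1, 1722 shared.

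Against a log2FC of 1, treat left 914 genes higher and 968 lower in place of 1778 and 1723, as its stricter null implies. Nfkbib (log2FC 1.08), Nfkbie (1.06), Bcl3 (0.67), Tnfaip3 (0.67), Tnip2 (0.55) and Nfkbid (0.23) did not pass it, and Nfkbia, Nfkbiz and Cyld did. On log2(CPM + 1), 1331 and 1351 genes passed the FDR with a log2FC over 1 and under -1. Over the 7 pathway lists, 181 of 182 counts moved by no more than 1.5 times, and the exception was the IKK list without stimulated replicate 3.

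With 3 samples per group at 1 time point and dose, quantile normalized values cannot show a change in total RNA per cell, and transcript levels do not show protein amounts or IκB degradation. The causes of the lost calls were not tested.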

Other observations

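In 3 of the 10 members (Nfkbib, Nfkbiz and Bcl3) the same replicate number had the highest value in both groups, and in 4 (Nfkbib, Nfkbie, Bcl3 and Tnip1) the same number had the lowest. With only 3 numbers, some such matches arise without any pairing. The share over all tested genes was not counted, so these counts do not show that the samples were paired. The pooled SD within groups ran from 0.05 for Nfkbia to 0.12 for Nfkbiz on the log2 scale. Genes within 0.5 of the mean level of Nfkbia had a median SD of 0.09, and those within 0.5 of Nfkbiz had 0.10.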
